A study of Mus musculus with 2 samples.

Results

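The receptors described here are 9 of the 32285 genes in the count tables, the chemokine receptors Ccr2, Ccr7, Ccr8, Cxcr3, Cxcr4, Cxcr6 and Cx3cr1 and the sphingosine-1-phosphate (S1P) receptors S1pr1 and S1pr5. They were chosen by gene symbol as receptors that steer lymphocytes into, through and out of tissue. Chemokine receptors are G protein-coupled receptors that let a cell move along a gradient of a secreted chemokine, while S1P receptors read the lipid S1P, which is plentiful in blood and lymph and scarce inside tissue. Naive T cells carry CCR7 to enter lymph nodes and S1PR1 to leave them, and activated T cells replace these with receptors for inflamed or barrier tissue such as CXCR3, CCR2 and CXCR6. In tumours CXCR6 is known for holding T cells near CXCL16-bearing myeloid cells, and CCR8 as a marker of tumour regulatory T cells.

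Both libraries were made from tumours of C57BL/6 mice (an inbred strain) after a sort for CD45, found on blood-derived cells, and CD90.2 (Thy1), found on T cells and some innate lymphocytes. One library is labelled WT and the other Dapl1-KO, a knockout of Dapl1, and nothing else about the animals differs in the labels. The labels give neither the tumour type, the age and number of the mice, nor the position of the Dapl1 deletion. Messages were counted from their 3′ ends as unique molecular identifiers (UMIs), 154408101 under the WT label and 206322042 under the Dapl1-KO label.

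The libraries were not cleanly separate. They shared 13132 cell barcodes, and the smaller copy of each was removed, which left 8998 and 10088 cells after filtering. Cells with Y-linked but no Xist messages made up 10.9% of cells under the WT label and 70.3% under the Dapl1-KO label, and cells with Xist but no Y-linked messages 73.7% and 0.0198%, so genotype and sex of the donor animals cannot be told apart. Dapl1 itself stood at 172 and 203 CPM (a gene's UMIs relative to all UMIs of the state) in naive CD8 cells and at 40.1 and 29.6 CPM in all CD8 T cells, so it was not depleted in the library labelled Dapl1-KO. A 3′ tag outside the deleted part checks nothing about the label. With 1 library per label, no difference below has a replicate check and none was tested. Intervals in parentheses are exact 95% intervals for counting error only, which take UMIs as independent. Where values come in pairs, the library labelled WT comes first and the library labelled Dapl1-KO second. A log2 ratio is followed by its interval.

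Cells were sorted into 17 lymphocyte states by marker messages that include none of the 9 receptors. The CD8 T cells (4347 and 5399) fell into naive or central memory cells (1183 and 638, called naive here), effectors with Ly6c2 or Gzma and no Pdcd1 message (475 and 962), and cells with Pdcd1, which encodes the inhibitory receptor PD-1. The last were progenitor-like cells with Tcf7 (161 and 212), cells with neither Tcf7 nor Havcr2, the gene of TIM-3 (436 and 676), and PD-1 TIM-3 cells with Gzmk (488 and 601) or without it (210 and 280), the phenotype usually called exhausted. Cycling CD8 cells (962 and 1720) were set apart first. The other states were naive CD4 cells (138 and 48), activated CD4 cells (377 and 451), regulatory T cells with Areg or Klrg1 (392 and 509) and without (231 and 216), double-negative innate-like T cells (799 and 817), type 17 gamma-delta T cells (86 and 69), Ly49 NK cells (238 and 411) and ILC1-like cells (119 and 69), besides remainders of the CD8 and NK gates. At least 3 of 4 further marker genes were detected in 10% or more of a state's cells. This held in each of these states except the PD-1 TIM-3-negative CD8 cells and the CD8 remainder, where none was looked up. The shares were not set against those of other states, so they do not tell the states apart. The further markers were not used in the state's own gate, save Tnfrsf4 in activated CD4 cells, whose absence helped set naive CD4 cells apart. The other 3 of that state, Cd40lg, Icos and Cd44, were detected as well. Some markers of one state served in the gate of another. Levels are CPM over the summed UMIs of a state. They come from 3′ counts and are not scaled by transcript length, so levels are compared between states and not between receptors.

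Between naive and PD-1 TIM-3 CD8 cells Cxcr6 was higher in the latter and Cxcr4 lower, and the sequences before their start sites are shown for that reason. Both are from RefSeq on build GRCm38.p6 and are written 5′ to 3′ on the gene's strand, with the motifs found in capitals. The Cxcr6 stretch is chr9:123806227-123806474 (248 bases, plus strand) and the Cxcr4 stretch is chr1:128592300-128592549 (250 bases, minus strand). The last 2 bases before the RefSeq start of Cxcr6 lie inside the annotated gene and were left off.
Cxcr6: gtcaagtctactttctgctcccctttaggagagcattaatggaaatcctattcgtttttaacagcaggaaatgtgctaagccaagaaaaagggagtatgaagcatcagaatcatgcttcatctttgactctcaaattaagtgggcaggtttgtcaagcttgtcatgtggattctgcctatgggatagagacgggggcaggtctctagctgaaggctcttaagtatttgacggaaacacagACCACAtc
Cxcr4: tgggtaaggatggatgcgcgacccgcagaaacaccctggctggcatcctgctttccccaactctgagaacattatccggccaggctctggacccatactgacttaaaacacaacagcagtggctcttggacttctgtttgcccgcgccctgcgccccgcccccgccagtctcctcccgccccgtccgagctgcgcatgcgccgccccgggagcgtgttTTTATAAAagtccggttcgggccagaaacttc
The 5 motifs searched on both strands, over 250 bases before the start, were T-box TCACACC or GGTGTGA (3.33% of 32851 promoters), AP-1 TGANTCA (6.75%), RUNX TGTGGT or ACCACA (14.04%), KLF CCACACC or GGTGTGG (6.52%) and the letters of the TATA box, TATAAA or TTTATA (12.4%). The letters of the T-box and KLF motifs overlap in part. The Cxcr6 stretch held 1 RUNX match, 10 bases before the start. The Cxcr4 stretch held the TATA letters on both strands in overlapping positions, 30 and 32 bases before the start. By composition the pair also differed, with 43.6% G and C before Cxcr6 and 61.2% before Cxcr4, against a median of 52.4% over all promoters. Of the other members in the RefSeq promoter table, Cx3cr1 held a RUNX match at 54 bases and Cxcr3 at 110 bases, while S1pr5, Ccr8 and Ccr2 held none of the 5 motifs. Ccr7 and S1pr1 were not matched in that table. Of the 250 bases before the RefSeq start, those inside the annotated gene were 250 for Cx3cr1, 233 for Ccr2, 122 for Cxcr3, 19 for Ccr8 and 0 for S1pr5. The RUNX matches of Cx3cr1 and Cxcr3 thus lay inside the annotated genes. A match describes letters only, and a window without one says nothing about the factor.

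On GRCm38 the annotation places 5 of the 9 genes on chromosome 9. They are S1pr5 (ENSMUSG00000045087) at chr9:21242912-21248443 on the minus strand, Cx3cr1 (ENSMUSG00000052336) at chr9:119901616-120069879 on the minus strand, Ccr8 (ENSMUSG00000042262) at chr9:120092114-120094906 on the plus strand, Cxcr6 (ENSMUSG00000048521) at chr9:123806475-123811760 on the plus strand and Ccr2 (ENSMUSG00000049103) at chr9:124101950-124113557 on the plus strand. The others are Cxcr4 (ENSMUSG00000045382) at chr1:128588199-128592293 on the minus strand, S1pr1 (ENSMUSG00000045092) at chr3:115710433-115715072 on the minus strand, Ccr7 (ENSMUSG00000037944) at chr11:99144196-99155077 on the minus strand and Cxcr3 (ENSMUSG00000050232) at chrX:101731535-101734269 on the minus strand. Cxcr3 is X-linked, and its comparison between the labels is one between libraries of different sex make-up.

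**Figure D1:**
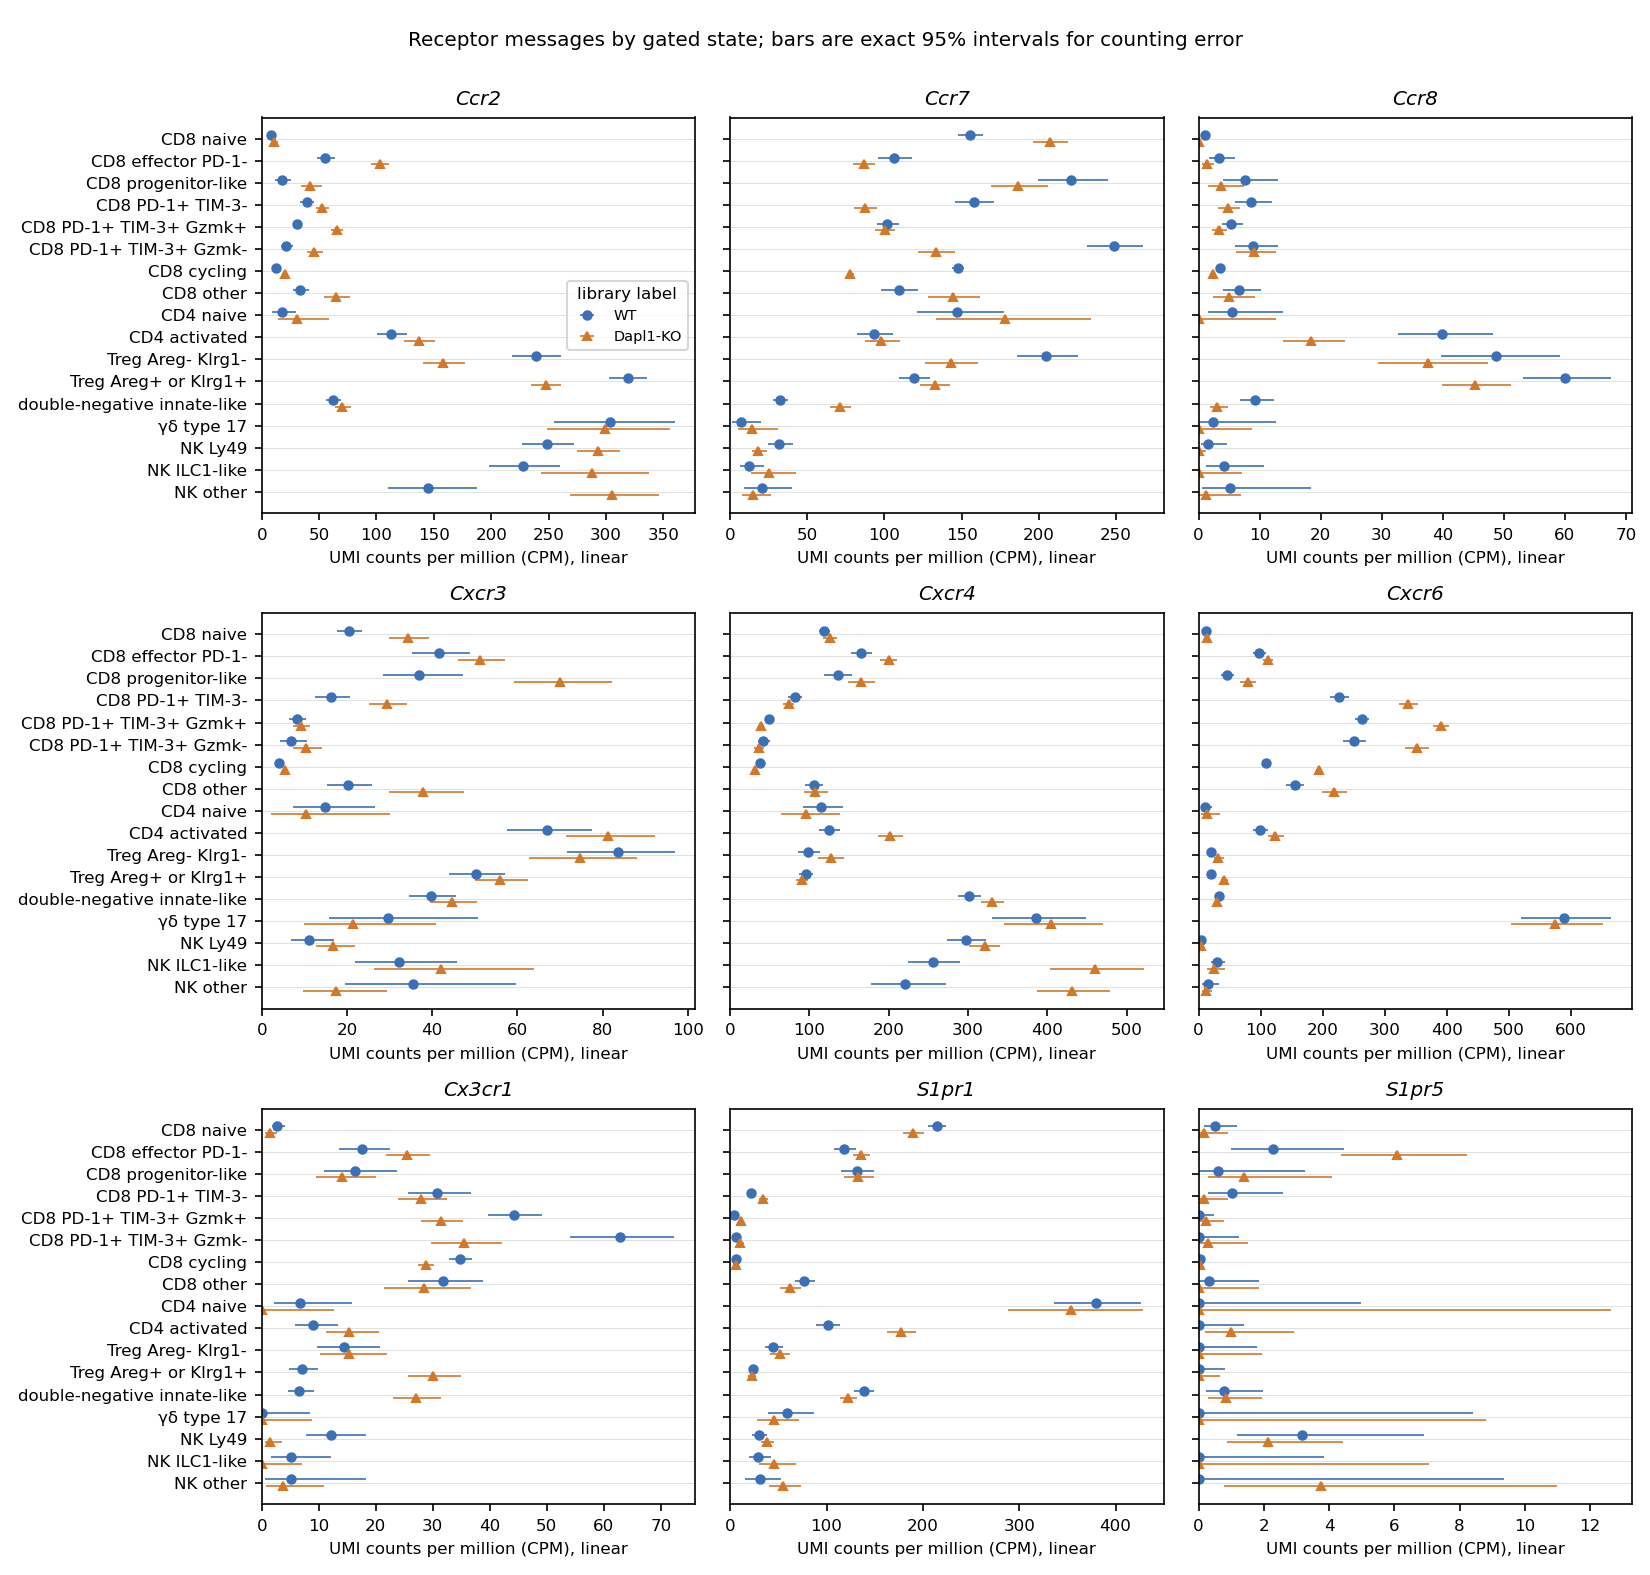
Level of each receptor (CPM, linear axis) in the gated lymphocyte states, with 1 point for the library labelled WT and 1 for the library labelled Dapl1-KO and bars for the exact 95% counting interval. S1pr1 runs from 379.6 and 353 CPM in naive CD4 cells down to 5.93 and 6.05 in cycling CD8 cells, whereas Cxcr6 is highest in type 17 gamma-delta T cells at 589 and 574.

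Among the receptors of lymph node traffic, S1pr1, which guides T cells out of lymph nodes towards S1P-rich lymph, marked the naive states and was nearly absent from PD-1 TIM-3 cells. In order of mean level over the 2 libraries, S1pr1 stood at 379.6 and 353 CPM in naive CD4 cells, 215 and 189.9 in naive CD8 cells, 101 and 178 in activated CD4 cells, 131 and 133 in progenitor-like CD8 cells, 138 and 122 in double-negative innate-like T cells, and 118 and 136 in PD-1-negative CD8 effectors. It then stood at 59.4 and 45.5 CPM in type 17 gamma-delta T cells, 44.4 and 51.3 in other regulatory T cells, 29.1 and 45.99 in ILC1-like cells, 29.6 and 37.9 in Ly49 NK cells, 21.5 and 34.3 in PD-1 TIM-3-negative cells, and 23.5 and 22.8 in Areg or Klrg1 regulatory T cells. The lowest levels were 6.31 and 10.6 CPM in Gzmk-negative PD-1 TIM-3 cells, 4.23 and 11.3 in Gzmk-positive PD-1 TIM-3 cells, and 5.93 and 6.05 in cycling CD8 cells. Neighbours along this order overlapped between the 2 libraries except at 4 places. These were naive CD4 above naive CD8 cells, naive CD8 above activated CD4 cells, PD-1-negative effectors above type 17 gamma-delta T cells, and Areg or Klrg1 regulatory T cells above Gzmk-negative PD-1 TIM-3 cells. S1pr1 was thus 44.6- and 17.04-fold lower in PD-1 TIM-3 cells than in naive CD8 cells of the same library, while progenitor-like cells, which carry Tcf7, kept levels 27.3- and 11.9-fold above the PD-1 TIM-3 cells. After thinning each cell to 3000 UMIs, 44.9% (41.98 to 47.7) and 40.2% (36.3 to 44.1) of naive CD8 cells held an S1pr1 UMI, against 1.44% (0.692 to 2.63) and 3.09% (2.05 to 4.47) of PD-1 TIM-3 cells. Without thinning the shares were 72.6% and 71.8% against 5.87% and 9.19%, at median depths of 7657 and 9395.5 UMIs for the naive cells and 13526 and 12843 for the PD-1 TIM-3 cells, and no cell type known to lack S1pr1 was there to give the background from free RNA.

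Ccr7, the receptor for the lymph node chemokines CCL19 and CCL21, did not follow S1pr1. Its levels were 221 and 187 CPM in progenitor-like CD8 cells, 249 and 134 in Gzmk-negative PD-1 TIM-3 cells, 156 and 207 in naive CD8 cells, 205 and 143 in other regulatory T cells, and 147 and 178 in naive CD4 cells. Next came 119 and 133 CPM in Areg or Klrg1 regulatory T cells, 158 and 87.3 in PD-1 TIM-3-negative cells, 148 and 77.8 in cycling CD8 cells, 102 and 100.1 in Gzmk-positive PD-1 TIM-3 cells, 106 and 86.7 in PD-1-negative CD8 effectors, and 93.2 and 98.004 in activated CD4 cells. The innate states were lowest, with 32.2 and 71.2 CPM in double-negative innate-like T cells, 31.7 and 18.4 in Ly49 NK cells, 12.5 and 24.9 in ILC1-like cells, and 6.85 and 14.4 in type 17 gamma-delta T cells. Along this order the libraries separated naive CD4 cells from Areg or Klrg1 regulatory T cells, activated CD4 cells from double-negative innate-like T cells, and the last from Ly49 NK cells, and every other pair of neighbours overlapped. PD-1 TIM-3 cells thus held Ccr7 at 143 and 109.5 CPM, beside 156 and 207 CPM in naive CD8 cells. The log2 ratio of Ccr7 in PD-1 TIM-3 over naive cells, the mean over both libraries, went from -0.52 to -1.78 with every barcode found in both libraries dropped (-1.91 to -1.64 over the 2 libraries). The share of cells with a UMI was lower in PD-1 TIM-3 than in naive CD8 cells as well. At 3000 UMIs it was 14.96% (12.4 to 17.8) and 9.62% (7.75 to 11.8) in PD-1 TIM-3 cells and 33.4% (30.7 to 36.1) and 37.5% (33.7 to 41.4) in naive CD8 cells, beside 5.15% (2.69 to 8.82) and 3.18% (1.70 to 5.37) in Ly49 NK cells, which served as the reference for free RNA at median depths of 6833 and 6973 UMIs. Without thinning the shares were 27.1% and 19.3%, 54.4% and 63.8% and 8.40% and 6.81%.

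The Ccr7 counts of PD-1 TIM-3 cells sat in few cells. Cells with 10 or more Ccr7 UMIs were 8.60% and 4.20% of PD-1 TIM-3 cells and held 74.4% and 72.3% of their Ccr7 counts. In naive CD8 cells such cells were 0.423% and 2.19% and held 4.46% and 15.9% of the counts. S1pr1 in naive CD8 cells had 2.66% and 1.85% of its counts in cells with 10 or more. Messages of antigen-presenting cells (Fscn1, Ccl22, class II or macrophage genes) moved with Ccr7 in these cells. A cell was counted as holding them with any UMI of Fscn1 or Ccl22, or with at least 3 UMIs of class II or of macrophage genes. Among PD-1 TIM-3 cells with at least 5 Ccr7 UMIs, 23.5% of 98 cells under the WT label and 21.6% of 74 under the Dapl1-KO label held them, against 5.50% and 7.43% of the other PD-1 TIM-3 cells. With every such cell left out, 75 and 58 Ccr7-rich cells remained, 11.7% and 7.21% of the state, and they held 89.8% and 85.6% of its Ccr7 counts. These cuts count UMIs without thinning. Median totals were 13526 and 12843 UMIs in PD-1 TIM-3 cells and 7657 and 9395.5 in naive CD8 cells. Those Ccr7-rich cells had 20477 and 19778, against 11326 and 11349 in PD-1 TIM-3 cells without Ccr7. The part of depth in these shares was not tested. Some genes of antigen-presenting cells stayed higher in the filtered Ccr7-rich cells than in PD-1 TIM-3 cells without Ccr7. Cd74 stood at 55.7 against 18.4 CPM under the WT label and 35.1 against 20.4 CPM under the Dapl1-KO label. Cst3 stood at 283 against 176 CPM and 338 against 195 CPM. Zbtb46 was higher on few counts, and Flt3 and Ccl17 had no count. The part of such RNA in the Ccr7-rich cells was not tested.

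**Figure D2:**
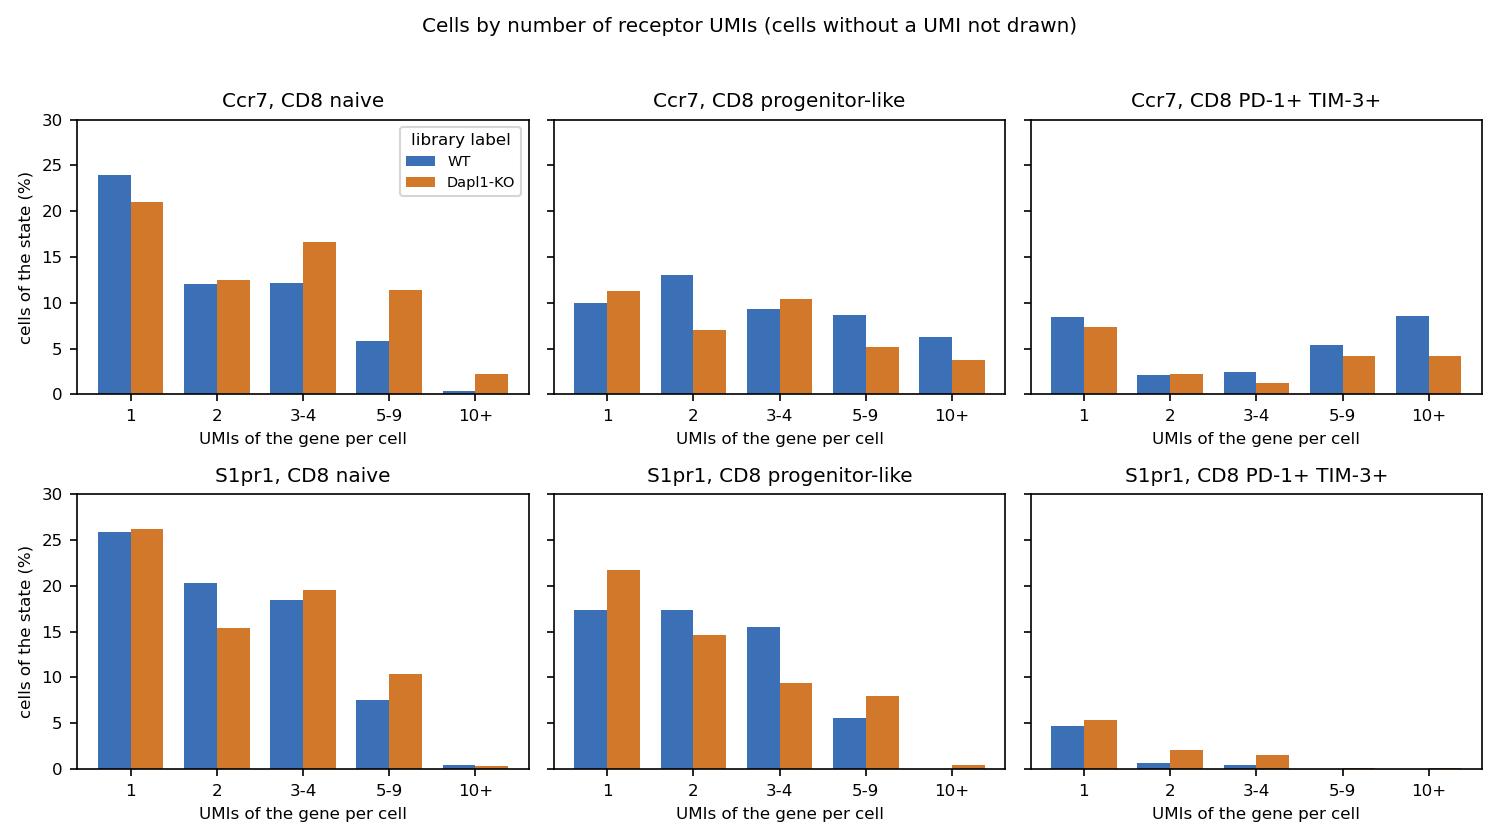
Share of a state's cells (percent, vertical axis) with 1, 2, 3 to 4, 5 to 9 or 10 and more UMIs of Ccr7 or S1pr1. The states are naive, progenitor-like and PD-1 TIM-3 CD8 cells of each library, without thinning, and cells without a UMI are not drawn. Cells with 10 or more Ccr7 UMIs are 8.60% and 4.20% of PD-1 TIM-3 cells and 0.423% and 2.19% of naive cells. Their shares of the Ccr7 counts, which are not drawn, are 74.4% and 72.3% in PD-1 TIM-3 cells and 4.46% and 15.9% in naive cells.

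S1pr5, which lets NK cells and terminal effectors leave tissue, was barely measured. PD-1-negative CD8 effectors held 8 and 41 S1pr5 counts (2.27 and 6.08 CPM) and Ly49 NK cells 6 and 7 (3.17 and 2.14 CPM). No S1pr5 count fell in naive CD4 cells, ILC1-like cells, either regulatory T state or type 17 gamma-delta T cells. In the 392 and 509 Areg or Klrg1 regulatory T cells, a count of 0 allows up to 0.658 and 0.539 CPM (3 counts of the state's total). In the remaining states S1pr5 had at most 5 counts per library, and no order among them can be read. The share of PD-1-negative effectors with an S1pr5 UMI at 3000 UMIs was 0.461% (0.0559 to 1.65) and 2.12% (1.28 to 3.30), against 0.170% (0.0206 to 0.614) and 0% (0 to 0.579) of naive CD8 cells, the reference, and 1.47% and 3.33% against 0.423% and 0.157% without thinning.

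Of the receptors for inflamed tissue, Ccr2, the receptor for the monocyte chemokine CCL2, was highest outside the CD8 lineage. In order, Ccr2 stood at 304 and 299 CPM in type 17 gamma-delta T cells, 319 and 248 in Areg or Klrg1 regulatory T cells, 248 and 293 in Ly49 NK cells, 228 and 287 in ILC1-like cells, and 239 and 158 in other regulatory T cells. The next levels were 113 and 137 CPM in activated CD4 cells, 55.3 and 103 in PD-1-negative CD8 effectors, 62.3 and 70.4 in double-negative innate-like T cells, 30.6 and 65.5 in Gzmk-positive PD-1 TIM-3 cells, and 39.1 and 52.7 in PD-1 TIM-3-negative cells. They ended with 21.6 and 45.8 CPM in Gzmk-negative PD-1 TIM-3 cells, 17.6 and 42.5 in progenitor-like CD8 cells, 17.6 and 30.9 in naive CD4 cells, 12.3 and 20.4 in cycling CD8 cells, and 7.85 and 10.99 in naive CD8 cells. The top 5 states were gamma-delta, regulatory and innate lymphocytes, each overlapping its neighbour in the order, and the last of them was separate from activated CD4 cells, which in turn were separate from PD-1-negative CD8 effectors. Cycling CD8 cells were separate from naive CD8 cells at the bottom. Within the CD8 lineage, PD-1-negative effectors were 7.04- and 9.36-fold above naive cells and 1.97- and 1.72-fold above PD-1 TIM-3 cells. A Ccr2 UMI was found at 3000 UMIs in 53.1% (47.9 to 58.3) and 42.7% (38.3 to 47.3) of Areg or Klrg1 regulatory T cells, in 14.3% (11.1 to 17.9) and 22.8% (20.1 to 25.7) of PD-1-negative effectors and in 2.13% (1.38 to 3.12) and 2.05% (1.09 to 3.48) of naive CD8 cells, the reference. Without thinning these were 72.96% and 57.96%, 23.6% and 32.6% and 5.24% and 4.86%, at median depths of 7834 and 8004, 6351 and 5701.5 and 7657 and 9395.5 UMIs.

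Cxcr3, which binds the interferon-induced chemokines CXCL9 and CXCL10, was carried by CD4, regulatory and progenitor-like cells and was low in PD-1 TIM-3 cells. The highest levels were 83.5 and 74.6 CPM in other regulatory T cells, 66.9 and 81.3 in activated CD4 cells, 36.96 and 70.04 in progenitor-like CD8 cells, 50.2 and 56.01 in Areg or Klrg1 regulatory T cells, and 41.7 and 51.3 in PD-1-negative CD8 effectors. These were followed by 39.7 and 44.8 CPM in double-negative innate-like T cells, 32.2 and 42.2 in ILC1-like cells, 20.5 and 34.2 in naive CD8 cells, 29.7 and 21.5 in type 17 gamma-delta T cells, 16.2 and 29.4 in PD-1 TIM-3-negative cells, and 11.1 and 16.8 in Ly49 NK cells. Last were 14.9 and 10.3 CPM in naive CD4 cells, 8.20 and 9.20 in Gzmk-positive PD-1 TIM-3 cells, 6.97 and 10.4 in Gzmk-negative PD-1 TIM-3 cells, and 4.14 and 5.43 in cycling CD8 cells. Only 2 steps of this order separated the libraries, naive CD4 cells above Gzmk-positive PD-1 TIM-3 cells and Gzmk-negative PD-1 TIM-3 cells above cycling cells. By CPM, progenitor-like cells stood 4.70- and 7.35-fold above PD-1 TIM-3 cells in the same library and PD-1-negative effectors 5.30- and 5.38-fold above them, against a PD-1 TIM-3 level that may itself be background. At 3000 UMIs, 13.2% (8.37 to 19.5) and 18.96% (13.9 to 24.9) of progenitor-like cells and 3.60% (2.34 to 5.26) and 3.32% (2.24 to 4.74) of PD-1 TIM-3 cells held a Cxcr3 UMI. Myeloid cells, taken as the reference, held one in 6.45% (1.79 to 15.7) and 0% (0 to 4.86), and in 26.2% and 9.52% without thinning at median depths of 20761 and 11490.5 UMIs. The PD-1 TIM-3 share was below that of the reference under the WT label and above it under the Dapl1-KO label. In each library it lay within the interval of the reference, so it was not told apart from background. The unthinned shares were 29.8% and 41.04% for progenitor-like and 8.60% and 10.3% for PD-1 TIM-3 cells.

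Cx3cr1, the receptor for fractalkine (CX3CL1) and a marker of cytotoxic effectors in blood, was highest in PD-1 TIM-3 cells. Its order was 62.8 and 35.4 CPM in Gzmk-negative PD-1 TIM-3 cells, 44.2 and 31.4 in Gzmk-positive PD-1 TIM-3 cells, 34.9 and 28.7 in cycling CD8 cells, 30.8 and 27.9 in PD-1 TIM-3-negative cells, and 17.6 and 25.5 in PD-1-negative CD8 effectors. It continued with 7.02 and 29.98 CPM in Areg or Klrg1 regulatory T cells, 6.56 and 26.99 in double-negative innate-like T cells, 16.4 and 14.01 in progenitor-like CD8 cells, 14.5 and 15.3 in other regulatory T cells, 9.02 and 15.4 in activated CD4 cells, and 12.2 and 1.53 in Ly49 NK cells. It ended with 6.75 and 0 CPM in naive CD4 cells, 5.20 and 0 in ILC1-like cells, 2.75 and 1.43 in naive CD8 cells, and 0 and 0 in type 17 gamma-delta T cells. Each of the first 4 states, all PD-1 or cycling CD8 cells, overlapped with its neighbour in this order, and the fourth was separate from PD-1-negative effectors. PD-1 TIM-3 cells were 17.9- and 22.7-fold above naive CD8 cells, and PD-1-negative effectors were 6.38- and 17.8-fold above them on 27 and 9 naive counts. A Cx3cr1 UMI was found at 3000 UMIs in 11.1% (8.84 to 13.7) and 8.02% (6.30 to 10.02) of PD-1 TIM-3 cells against 0.766% (0.351 to 1.45) and 0.472% (0.0975 to 1.37) of naive CD8 cells, the reference, and in 32.8% and 26.3% against 1.61% and 1.25% without thinning. In 2 states of the library labelled Dapl1-KO a single cell set the level. It held 94 of 167 Cx3cr1 counts in Areg or Klrg1 regulatory T cells and 99 of 161 in double-negative innate-like T cells, and without it the levels went from 29.98 to 13.2 CPM and from 26.99 to 10.4 CPM.

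The receptors of tissue retention and position set the PD-1 states apart from naive cells. Cxcr6, whose ligand CXCL16 is displayed by myeloid cells, stood at 589 and 574 CPM in type 17 gamma-delta T cells, 264 and 391 in Gzmk-positive PD-1 TIM-3 cells, 251 and 352 in Gzmk-negative PD-1 TIM-3 cells, 227 and 338 in PD-1 TIM-3-negative cells, and 109 and 193 in cycling CD8 cells. Intermediate levels were 99.6 and 124 CPM in activated CD4 cells, 97.8 and 111 in PD-1-negative CD8 effectors, 45.8 and 78.9 in progenitor-like CD8 cells, 32.98 and 29.2 in double-negative innate-like T cells, and 19.3 and 41.1 in Areg or Klrg1 regulatory T cells. The lowest were 29.1 and 24.9 CPM in ILC1-like cells, 19.3 and 31.7 in other regulatory T cells, 12.03 and 13.9 in naive CD8 cells, 10.8 and 13.7 in naive CD4 cells, and 3.70 and 3.06 in Ly49 NK cells. Type 17 gamma-delta T cells were separate from all others, each of the PD-1 TIM-3 and PD-1 TIM-3-negative states overlapped its neighbour and the last of them was separate from cycling cells, and PD-1-negative effectors were separate from progenitor-like cells, which were separate from double-negative innate-like T cells. Other regulatory T cells above naive CD8 cells and naive CD4 cells above Ly49 NK cells were the remaining separate steps. PD-1 TIM-3 cells were 21.6- and 27.4-fold above naive CD8 cells, whereas progenitor-like cells, which share Pdcd1 with them, were 5.68- and 4.81-fold below PD-1 TIM-3 cells. At 3000 UMIs a Cxcr6 UMI was found in 50.5% (46.7 to 54.3) and 61.4% (58.1 to 64.6) of PD-1 TIM-3 cells, in 9.43% (5.38 to 15.1) and 22.7% (17.3 to 29.01) of progenitor-like cells and in 4.85% (3.69 to 6.24) and 4.25% (2.82 to 6.13) of naive CD8 cells, the reference. Without thinning these shares were 84.96% and 93.3%, 24.8% and 40.1% and 8.45% and 10.97%, at median depths of 13526 and 12843, 9618 and 8690 and 7657 and 9395.5 UMIs.

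Cxcr4, the receptor for stromal CXCL12, was lower in PD-1 TIM-3 than in naive CD8 cells, the reverse of Cxcr6, while both receptors had higher levels in PD-1-negative effectors than in progenitor-like cells, and in these than in naive cells. It stood at 386 and 404 CPM in type 17 gamma-delta T cells, 256 and 459.9 in ILC1-like cells, 302 and 330.4 in double-negative innate-like T cells, 298 and 321 in Ly49 NK cells, and 165 and 199.8 in PD-1-negative CD8 effectors. It stood next at 125 and 202 CPM in activated CD4 cells, 136 and 165 in progenitor-like CD8 cells, 118 and 126 in naive CD8 cells, 98.5 and 127 in other regulatory T cells, and 115 and 96.1 in naive CD4 cells. The last 5 levels were 95.2 and 90.5 CPM in Areg or Klrg1 regulatory T cells, 81.3 and 73.6 in PD-1 TIM-3-negative cells, 48.6 and 38.9 in Gzmk-positive PD-1 TIM-3 cells, 41.8 and 36.5 in Gzmk-negative PD-1 TIM-3 cells, and 37.4 and 31.6 in cycling CD8 cells. Gamma-delta, ILC1-like, double-negative and NK cells each overlapped the next of them at the top, and NK cells were separate from PD-1-negative CD8 effectors. Further down, progenitor-like cells were separate from naive CD8 cells, naive CD4 cells from Areg or Klrg1 regulatory T cells, these from PD-1 TIM-3-negative cells, and these from Gzmk-positive PD-1 TIM-3 cells. PD-1 TIM-3 cells held 2.54- and 3.29-fold less Cxcr4 than naive CD8 cells, and PD-1-negative effectors 3.54- and 5.22-fold more than PD-1 TIM-3 cells. The shares with a UMI at 3000 UMIs were 16.7% (13.99 to 19.7) and 12.1% (10.05 to 14.5) in PD-1 TIM-3 cells, 25.6% (23.1 to 28.2) and 30.2% (26.7 to 33.97) in naive CD8 cells and 37.1% (32.5 to 41.8) and 38.99% (35.8 to 42.3) in PD-1-negative effectors, and 42.7% and 33.9%, 47.1% and 56.1% and 55.4% and 60.5% without thinning. No cell type in the tables is known to lack Cxcr4, so no background share is given.

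Ccr8, the receptor for CCL1, was a message of regulatory and activated CD4 cells. Regulatory T cells with Areg or Klrg1 held 60.1 and 45.2 CPM, other regulatory T cells 48.8 and 37.6 CPM and activated CD4 cells 39.8 and 18.4 CPM. Next by mean level were Gzmk-negative PD-1 TIM-3 cells at 8.97 and 8.997 CPM. Below these came 8.59 and 4.73 CPM in PD-1 TIM-3-negative cells, 9.26 and 3.02 in double-negative innate-like T cells, 7.63 and 3.74 in progenitor-like CD8 cells, 5.38 and 3.32 in Gzmk-positive PD-1 TIM-3 cells, and 3.42 and 2.32 in cycling CD8 cells. The rest were 5.40 and 0 CPM in naive CD4 cells, 3.40 and 1.33 in PD-1-negative CD8 effectors, 4.16 and 0 in ILC1-like cells, 2.28 and 0 in type 17 gamma-delta T cells, 1.59 and 0 in Ly49 NK cells, and 1.02 and 0 in naive CD8 cells, on no more than 12 counts per library. Neighbours among the first 3 states overlapped, and the third was separate from Gzmk-negative PD-1 TIM-3 cells, which were separate from PD-1 TIM-3-negative cells. A Ccr8 UMI was found at 3000 UMIs in 18.1% (14.3 to 22.4) and 14.9% (11.9 to 18.4) of Areg or Klrg1 regulatory T cells and in 0.426% (0.138 to 0.990) and 0% (0 to 0.579) of naive CD8 cells, the reference, and in 43.4% and 33.8% and 0.676% and 0% without thinning. Across the 1183 and 638 naive CD8 cells Ccr8 had 10 and 0 counts.

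Set directly against naive CD8 cells of the same library, the PD-1 TIM-3 cells held more of 4 receptors and less of 3. Ccr2, Ccr8, Cxcr6 and Cx3cr1 were higher and Cxcr3, Cxcr4 and S1pr1 lower, each by at least 1.5-fold in both libraries. Of the 8 receptors with at least 50 counts, 4 were higher and 3 lower under the WT label, and 4 higher and 4 lower under the Dapl1-KO label, where Ccr7 joined the lower ones. Of all genes with at least 50 counts, 50.5% and 49.2% passed the same fold, so a change of this size was common between these states, and the receptors are read by their sizes and their order. The log2 ratio of Cxcr6 was 4.43 (4.17 to 4.71) under the WT label and 4.78 (4.47 to 5.10) under the Dapl1-KO label. For Cx3cr1 it was 4.17 (3.61 to 4.78) and 4.51 (3.57 to 5.64), and for Ccr2 1.84 (1.48 to 2.22) and 2.45 (2.09 to 2.82). For each of these 3 the intervals of the 2 libraries overlapped. Ccr8 was higher by 2.65 (1.68 to 3.77) under the WT label and at least 10.3-fold higher under the Dapl1-KO label, where naive cells had 0 counts and the floor of 3 counts over the group stands in. S1pr1 was lower, at -5.48 (-5.91 to -5.08) and -4.09 (-4.35 to -3.84), and the 2 intervals do not meet. Cxcr4 stood at -1.34 (-1.496 to -1.19) and -1.72 (-1.88 to -1.56), and Cxcr3 at -1.38 (-1.77 to -1.01) and -1.85 (-2.18 to -1.52). Ccr7 was near even under the WT label at -0.12 (-0.23 to -0.020) and lower under the Dapl1-KO label at -0.92 (-1.03 to -0.81). Scaling by the median gene instead of the total lowers each of these by 0.25 under the WT label and 0.36 under the Dapl1-KO label on the log2 scale, which changes no direction.

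**Figure D3:**
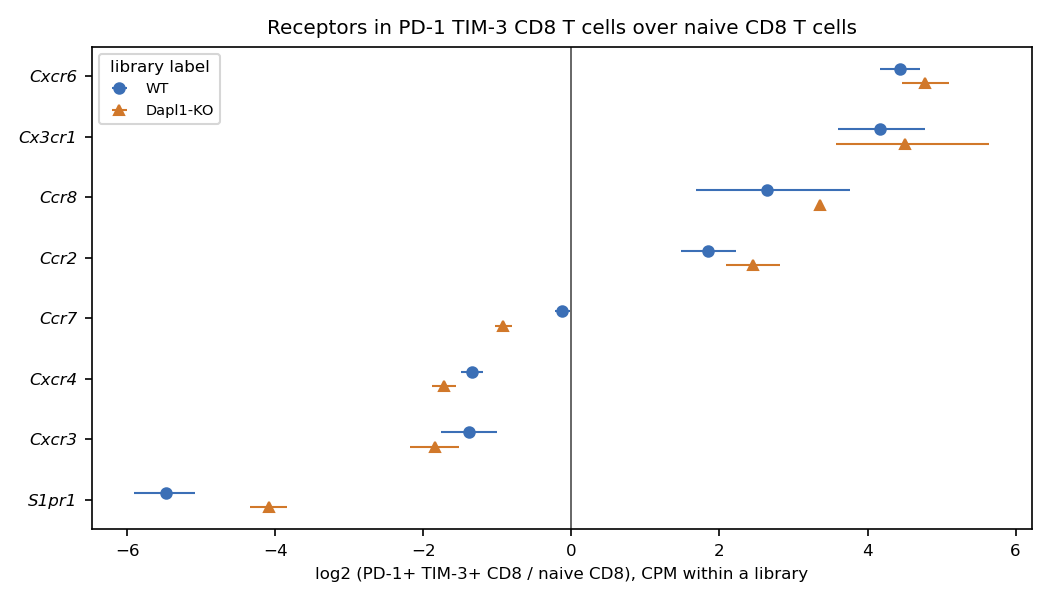
Log2 ratio of CPM in PD-1 TIM-3 over naive CD8 cells for each receptor, 1 point per library with its exact 95% counting interval, S1pr5 left out for too few counts. Cxcr6 (4.43 and 4.78) and Cx3cr1 (4.17 and 4.51) lie far above 0 and S1pr1 (-5.48 and -4.09) far below, and the Ccr8 point of the library labelled Dapl1-KO is a lower bound set against the floor of 3 counts.

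PD-1-negative effectors held more Cxcr6 and Ccr2 than naive cells, at S1pr1 levels nearer those of naive cells than of PD-1 TIM-3 cells. Over naive CD8 cells, 4 receptors were higher and 1 lower of 7 under the WT label, and 4 higher and 1 lower of 7 under the Dapl1-KO label, with backgrounds of 23.2% and 24.3% of genes. Cxcr6 was 8.13- and 8.02-fold higher than in naive cells and Ccr2 7.04- and 9.36-fold higher, while S1pr1 was 1.81- and 1.40-fold lower. Against PD-1 TIM-3 cells, the same effectors had 24.6- and 12.2-fold more S1pr1, 3.54- and 5.22-fold more Cxcr4 and 2.66- and 3.42-fold less Cxcr6. Progenitor-like cells against PD-1 TIM-3 cells showed 4 receptors higher and 3 lower of 8 under the WT label, and 4 higher and 2 lower under the Dapl1-KO label (backgrounds 34.2% and 33.9%). The higher ones were Ccr7, Cxcr3, Cxcr4 and S1pr1 in both libraries. Ccr7 was 1.55- and 1.71-fold higher in progenitor-like cells, the smallest of these 4 ratios.

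Inside the PD-1 TIM-3 gate, cells with and without Gzmk, a granzyme of less terminal effectors, were alike in most receptors. Of 8 receptors, 2 under the WT label (Ccr7 and Ccr8) and 1 under the Dapl1-KO label (Ccr8) were lower with Gzmk and none was higher by 1.5-fold, against backgrounds of 8.06% and 7.89%. Cxcr6 differed by a log2 ratio of only 0.073 (-0.048 to 0.19) and 0.15 (0.058 to 0.24). Ccr2 leaned towards the cells with Gzmk at 0.505 (0.10 to 0.92) and 0.52 (0.27 to 0.77), and Ccr7 away from them at -1.29 (-1.44 to -1.14) and -0.42 (-0.58 to -0.26). Cycling cells, compared with PD-1 TIM-3 cells, had 4 of 8 receptors lower under the WT label and 5 under the Dapl1-KO label, with none higher (backgrounds 24.8% and 25.5%). Their Cxcr6 was 2.39- and 1.96-fold lower and their Ccr2 2.29- and 2.93-fold lower. Cycling cells held median totals of 32069.5 and 27853 UMIs, against 13526 and 12843 in PD-1 TIM-3 cells, and the part of that larger total in the lower CPM was not tested.

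Between the 2 labels, CD8 T cells of the library labelled Dapl1-KO held more Ccr2 and Cxcr6 and less Ccr7. Ccr2 and Cxcr6 had that direction in each of the 8 CD8 states, and Ccr7 in 6. Over all CD8 T cells, Ccr2 stood at 19.1 and 35.1 CPM, a log2 ratio of 0.88 (0.78 to 0.97) or 1.84-fold. Cxcr6 stood at 126 and 209 CPM, a log2 ratio of 0.73 (0.70 to 0.77) or 1.66-fold. Ccr7 stood at 147 and 96.4 CPM, a log2 ratio of -0.60 (-0.65 to -0.56), or 1.52-fold lower in the library labelled Dapl1-KO. S1pr5 (20 and 51 counts, 0.91, 0.14 to 1.73) also passed 1.5-fold upwards and Ccr8 (277 and 249 counts, -0.60, -0.85 to -0.34) downwards. The other 4 did not pass that limit, with log2 ratios of 0.42 (0.29 to 0.55) for Cxcr3, -0.15 (-0.21 to -0.094) for Cxcr4, -0.20 (-0.29 to -0.12) for Cx3cr1 and -0.49 (-0.56 to -0.42) for S1pr1. In all, 3 of 9 receptors were higher and 2 lower by at least 1.5-fold (5.17% and 9.72% of genes), 5 of 9 in all beside 14.9% of the 12959 genes with at least 50 counts. Dropping every barcode found in both libraries, which left 1512 and 2537 CD8 T cells, turned Ccr8 to 0.14 (-0.58 to 0.90), brought Ccr7 to -0.19 (-0.29 to -0.092) and Cx3cr1 to 0.95 (0.63 to 1.28). Over cells with Y-linked but no Xist messages, 644 and 4094, Cx3cr1 also turned, to 0.82 (0.57 to 1.07), S1pr1 passed the fold at -1.33 (-1.46 to -1.21), and the library labelled WT held no S1pr5 count. Ccr2 and Cxcr6 stayed above 0 in these cells, at 0.97 (0.73 to 1.22) and 0.45 (0.37 to 0.53).

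The states did not hold equal parts of the 2 libraries, since naive cells were 27.2% and 11.8% of CD8 T cells and cycling cells 22.1% and 31.9%, so each ratio was also taken within states. The share of genes past 1.5-fold in single states was 16.2% in naive cells, 11.5% in PD-1-negative effectors, 13.4% in progenitor-like cells, 12% in PD-1 TIM-3-negative cells, 12% and 13.0% in Gzmk-positive and Gzmk-negative PD-1 TIM-3 cells, 12.2% in cycling cells and 14.7% in remaining CD8 cells. Ccr2 was higher under the Dapl1-KO label in 8 of 8 states and past 1.5-fold in 6, with log2 ratios from 0.43 to 1.27. In PD-1-negative effectors its levels were 55.3 and 103 CPM, in Gzmk-positive PD-1 TIM-3 cells 30.6 and 65.5 CPM and in cycling cells 12.3 and 20.4 CPM. Cxcr6 was higher in 8 of 8 states, from 0.19 to 0.83, and past 1.5-fold in 2 of them, cycling (0.83, 0.78 to 0.89) and progenitor-like cells (0.79, 0.39 to 1.19). For Cxcr6 the naive cells (0.20, -0.21 to 0.62) and effectors (0.19, -0.00067 to 0.37) gave the smallest values, with intervals that reach 0. Cxcr3 was also higher in 8 of 8 states and past 1.5-fold in 4, with 0.74 (0.46 to 1.03) in naive and 0.92 (0.49 to 1.37) in progenitor-like cells. The Cxcr3 ratio over all CD8 T cells, 0.42, stands beside a larger share of cycling cells, where Cxcr3 was lowest, in the library labelled Dapl1-KO. The mean over states, each weighted equally, was 0.61. These within-state values moved with the shared barcodes. When every one was dropped, Ccr2 was higher in 6 of 8 states and kept 3 of its 6 calls. It turned to -0.45 (-1.75 to 1.21) in cycling cells (14 and 170 left) and -0.062 (-0.58 to 0.48) in PD-1 TIM-3-negative cells, and stood at 0.067 (-0.49 to 0.66) in Gzmk-positive and 0.52 (-0.47 to 1.64) in Gzmk-negative PD-1 TIM-3 cells. With all deposited barcodes kept, 4 of the 6 Ccr2 calls remained, and in Y-linked cells 5, with effectors at 0.38 (-0.20 to 1.03). The call in Y-linked progenitor-like cells rests on 1 Ccr2 count in 19 cells under the WT label. Cxcr3 without shared barcodes turned to -1.83 (-2.90 to -0.78) in Gzmk-positive and -0.56 (-1.85 to 0.81) in Gzmk-negative PD-1 TIM-3 cells and -0.20 (-2.16 to 2.91) in cycling cells, and in Y-linked cells to -0.39 (-1.32 to 0.68) in Gzmk-positive cells and -0.041 (-0.80 to 0.82) in effectors. Its 4 calls were kept under both, though Y-linked progenitor-like cells under the WT label held only 2 Cxcr3 counts. Cxcr6 stayed higher in 8 of 8 states without shared barcodes. In Y-linked cells it fell short of the fold in cycling cells (0.43, 0.30 to 0.56) and turned in effectors (-0.010, -0.51 to 0.53), as it did there with all deposited barcodes kept (-0.013, -0.18 to 0.15). Without doublet removal its value in progenitor-like cells was 0.40 (0.13 to 0.68).

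Ccr7 and S1pr1 differed from state to state. Ccr7 was lower in the library labelled Dapl1-KO in cycling cells (-0.92, -0.98 to -0.86), in Gzmk-negative PD-1 TIM-3 cells (-0.90, -1.07 to -0.73) and in PD-1 TIM-3-negative cells (-0.85, -1.02 to -0.69). It was higher in naive cells (0.41, 0.31 to 0.52) and close to even in Gzmk-positive PD-1 TIM-3 cells (-0.025, -0.16 to 0.11). Without cells holding antigen-presenting-cell messages the ratio over all CD8 T cells was -0.79. With every shared barcode dropped, PD-1 TIM-3-negative cells (174 and 399 left) gave 0.30 (-0.18 to 0.80) and Gzmk-negative PD-1 TIM-3 cells (41 and 100 left) 0.68 (0.010 to 1.41), both above 0. Ccr7 kept its sign in 3 of 8 states there and none of its 3 calls, with cycling cells at -0.58 (-1.36 to 0.32). In Y-linked cycling cells it was -0.38 (-0.54 to -0.23). S1pr1 was lower over all CD8 T cells, but it was higher within 6 of 8 states and past 1.5-fold in 3, the PD-1 TIM-3-negative (0.67, 0.30 to 1.06), Gzmk-positive (1.42, 0.85 to 2.03) and Gzmk-negative PD-1 TIM-3 cells (0.75, -0.073 to 1.63), the last on 19 and 39 counts. In naive cells, which held most S1pr1 and were 27.2% and 11.8% of CD8 T cells, it was 215 and 189.9 CPM, a log2 ratio of -0.18 (-0.28 to -0.073). With each state weighted equally the S1pr1 mean was 0.33. The S1pr1 counts behind the higher values in PD-1 TIM-3 cells were small, 52 and 145 against 2105 and 1192 in naive cells, and the part of free RNA in them was not tested. Without doublet removal S1pr1 in Gzmk-positive PD-1 TIM-3 cells was 0.16 (-0.22 to 0.53), short of the fold. S1pr1 turned to -0.56 (-2.17 to 1.18) in Gzmk-negative PD-1 TIM-3 cells without any shared barcode, where it was higher in 3 of 8 states, and to -0.027 (-0.69 to 0.70) in PD-1 TIM-3-negative cells with Y-linked but no Xist messages (79 and 467 cells). Cxcr4 was lower in 4 states and higher in 4, never past 1.5-fold, with log2 ratios from -0.32 to 0.28. Cx3cr1 was lower in 6 of the 7 states with at least 50 counts, 62.8 and 35.4 CPM in Gzmk-negative PD-1 TIM-3 cells (-0.82, -1.16 to -0.49), and higher in PD-1-negative effectors (0.54, 0.11 to 0.98). Among Y-linked cells Cx3cr1 was higher in 6 of 7 states, with 1.15 (0.28 to 2.14) in the Gzmk-negative (44 and 230 cells) and 1.01 (0.28 to 1.84) in the Gzmk-positive state. With every shared barcode dropped it turned in PD-1 TIM-3-negative (0.40, -0.32 to 1.18), cycling (1.78, -0.75 to 7.11) and remaining CD8 cells (1.09, 0.23 to 1.9995), and without doublet removal in Gzmk-positive PD-1 TIM-3 cells (0.40, 0.21 to 0.59). Ccr8 was lower in 3 of the 4 states with at least 50 counts and past 1.5-fold in 2, the Gzmk-positive PD-1 TIM-3 (-0.70, -1.42 to 0.0053) and PD-1 TIM-3-negative cells (-0.86, -1.63 to -0.10), on 42 and 31 and 34 and 29 counts. The first of these turned to 1.15 (-1.81 to 6.64) with every shared barcode dropped.

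**Figure D4:**
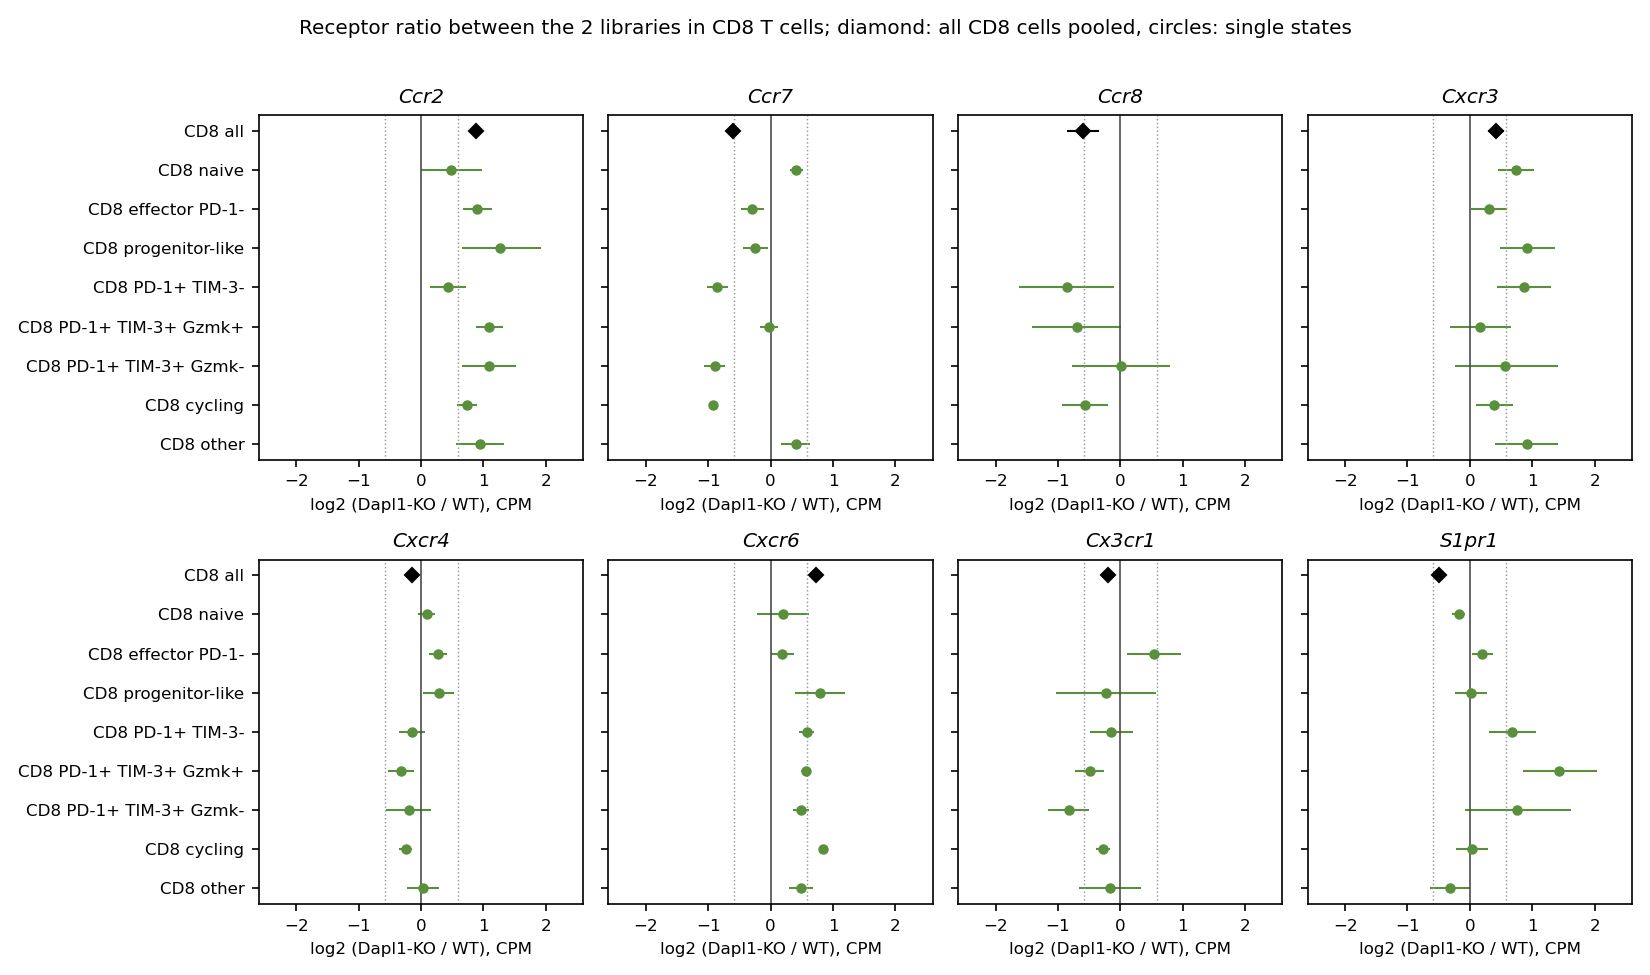
Log2 ratio of CPM, library labelled Dapl1-KO over library labelled WT, for each receptor in all CD8 T cells (diamonds) and in each CD8 state with at least 50 counts (circles), with exact 95% counting intervals and dotted lines at 1.5-fold. S1pr5 is left out for its few counts. Every Ccr2 and Cxcr6 point lies above 0, while Ccr7 runs from -0.92 in cycling cells to 0.41 in naive cells.

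Because the library labelled WT held cells of both sex-linked patterns, the receptors could be compared between them inside 1 library. Over CD8 T cells with Y-linked but no Xist messages (644 cells) against those with Xist only (3092 cells), S1pr1 was higher by 0.85 (0.72 to 0.98) and Cx3cr1 stood at -1.16 (-1.42 to -0.91) on the log2 scale. Ccr2 stood at -0.27 (-0.53 to -0.014), Cxcr6 at 0.35 (0.27 to 0.44), Cxcr3 at -0.37 (-0.72 to -0.029) and Ccr7 at -0.064 (-0.15 to 0.022). These values mix states held in unequal shares, since naive cells were 209 of the 644 and 720 of the 3092. Within single states S1pr1 ran from 0.00014 in cycling cells to 1.504 in remaining CD8 cells, with 0.20 (0.036 to 0.36) in naive cells. Cx3cr1 was lower in 6 of 8 states, from -2.33 to 0.54. Cxcr6 was higher in 5 of 8 states, from -1.11 to 0.58, with -0.64 (-1.54 to 0.16) in naive cells, Ccr2 in 3, Cxcr3 in 3 and Ccr7 in 5. The labels do not give the source of the Y-linked cells in the library labelled WT.

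Outside the CD8 lineage the receptors differed less regularly between the labels. In regulatory T cells, Cxcr6 was higher under the Dapl1-KO label both with Areg or Klrg1 (19.3 and 41.1 CPM, 1.09, 0.73 to 1.46) and without (19.3 and 31.7 CPM, 0.72, 0.12 to 1.33). Ccr2 had the opposite sign in those cells, -0.37 (-0.47 to -0.26) with Areg or Klrg1 and -0.60 (-0.81 to -0.39) without. In the latter it turned to 1.10 (0.30 to 2.003) with every shared barcode dropped (30 and 117 cells) and to 0.46 (-0.41 to 1.49) in Y-linked cells (8 and 126). In the former it turned as well, to 0.24 (-0.35 to 0.89) and 0.034 (-0.36 to 0.45). In all, 2 receptors of 8 were higher in Areg or Klrg1 regulatory T cells, Cxcr6 and Cx3cr1, the latter with most counts in the single cell named above, and 0 lower (9.13% of genes passed the fold). With every shared barcode dropped (15 and 157 cells) the library labelled WT held no Cx3cr1 count in the Areg or Klrg1 cells. In other regulatory T cells 1 was higher and 1 lower of 8 (10.1%). Ccr8, their marker receptor, was -0.41 (-0.66 to -0.16) with Areg or Klrg1 and -0.38 (-0.84 to 0.075) without, short of 1.5-fold in both. With Areg or Klrg1 it turned to 1.32 (-0.60 to 4.40) with every shared barcode dropped, and in Y-linked cells it was 0.31 both with (-0.64 to 1.47) and without (-1.33 to 2.64).

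In activated CD4 cells, Cxcr4 (125 and 202 CPM, 0.69, 0.497 to 0.89) and S1pr1 (101 and 178 CPM, 0.81, 0.60 to 1.03) were higher under the Dapl1-KO label. Cx3cr1 was higher too, on 24 and 46 counts, and Ccr8 was lower (39.8 and 18.4 CPM, -1.11, -1.61 to -0.63), so 3 of 8 receptors passed upwards and 1 downwards, beside 10.9% of genes. With every shared barcode dropped S1pr1 was 0.30 (-0.036 to 0.65), and in Y-linked cells S1pr1 was 0.51 (-0.21 to 1.33) and Cxcr4 0.16 (-0.42 to 0.79), all short of the fold. Among Y-linked activated CD4 cells (23 and 265) the library labelled WT held no Cx3cr1 count. In naive CD4 cells none of the 3 receptors with at least 50 counts passed the fold, where 25.3% of genes did. Activated CD4 cells, like CD8 effectors, held more Cxcr6 and Ccr2 and less S1pr1 than naive cells of their lineage. Cxcr6 was 9.22- and 9.02-fold and Ccr2 6.42- and 4.43-fold higher, and S1pr1 3.75- and 1.99-fold lower, on as few as 4 Cxcr6 counts in naive CD4 cells. There 4 and 5 of 7 receptors were higher and 2 lower in each library, with backgrounds of 48.9% and 49.2%. Regulatory T cells as a whole, set against activated CD4 cells, had 2.61- and 1.64-fold more Ccr2, 5.16- and 3.19-fold less Cxcr6 and 3.37- and 5.92-fold less S1pr1.

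Among innate-like and innate cells, double-negative T cells showed Ccr7 higher under the Dapl1-KO label (32.2 and 71.2 CPM, 1.15, 0.88 to 1.41), Cx3cr1 higher with most counts in the single cell named above, and Ccr8 lower on 48 and 18 counts (-1.62, -2.49 to -0.81). That is 2 receptors of 8 higher and 1 lower, beside 12% of genes. A single cell held 10.8% of the Ccr7 counts of double-negative T cells in the library labelled Dapl1-KO, and without it the level there was 63.7 CPM. With every shared barcode dropped the Ccr7 ratio of these cells was 0.505 (0.087 to 0.94), short of the fold. Among Y-linked cells (37 and 529) Cx3cr1 turned to -0.67 (-1.80 to 0.71). Ly49 NK cells, mature NK cells by their inhibitory receptors, had Ccr2 at 248 and 293 CPM and Cxcr4 at 298 and 321 CPM, with 1 receptor (Cxcr3) higher and 1 (Ccr7) lower of 5 (10.4% of genes). The interval of Cxcr3 reached 0 (0.60, -0.15 to 1.40), and its value turned to -0.12 (-1.58 to 1.65) with every shared barcode dropped and -1.06 (-2.70 to 1.28) in Y-linked cells. With every shared barcode dropped (42 and 176 Ly49 NK cells) the library labelled WT held no Ccr7 count there. ILC1-like cells are named only for an Il7r or Cd200r1 message within the NK gate. Their further markers, Tyrobp, Eomes, Prf1 and Klre1, were those of the other NK states, and tissue residency was not tested. These cells had Cxcr4 higher under the Dapl1-KO label (0.85, 0.58 to 1.11) and S1pr1 at 0.66 (-0.19 to 1.4999) on 28 and 24 counts, 2 of 4 past the fold (14.3% of genes). Only 3 and 42 Y-linked ILC1-like cells remained, and S1pr1 in them was -1.86 (-3.87 to 0.66). The remaining NK cells (52 and 112) had Ccr2 (1.08, 0.66 to 1.52), Cxcr4 (0.96, 0.62 to 1.32) and S1pr1 (0.85, -0.092 to 1.91) higher, 3 of the 3 receptors with at least 50 counts (15.1% of genes). In their Y-linked cells (1 and 71) Cxcr4 was -1.89 (-2.72 to -0.92) and S1pr1 -2.37 (-4.36 to 0.74), and the library labelled WT held no Ccr2 count. Cxcr6 differed between the 2 NK states, at 29.1 and 24.9 CPM in ILC1-like and 3.70 and 3.06 CPM in Ly49 NK cells, though on 28 and 13 and 7 and 10 counts. In type 17 gamma-delta T cells, with 86 and 69 cells, Cxcr6 (-0.038, -0.30 to 0.22), Cxcr4 (0.067, -0.25 to 0.38) and Ccr2 (-0.023, -0.39 to 0.34) were even between the labels, and none of the 3 receptors with at least 50 counts passed 1.5-fold, where 17.8% of genes did.

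Cells with UMIs of both the exit receptor S1pr1 and the retention receptor Cxcr6 were fewer than the product of the single shares. In CD8 T cells thinned to 3000 UMIs, Cxcr6 and S1pr1 were found together in 63 of 4240 cells (1.49%, 1.14 to 1.90) and 125 of 5251 cells (2.38%, 1.99 to 2.83), where the product of the single shares gives 5.08% and 5.55%. The ratio of observed to product was 0.292 and 0.429. It was 0.539 and 0.605 for Ccr7 with Cxcr6 and 0.466 and 0.570 for Ccr2 with Ccr7. Above 1 were Ccr7 with S1pr1 at 1.41 and 1.57 and Ccr2 with Cxcr3 at 1.90 and 1.78. These ratios mix states, and inside the PD-1 TIM-3-negative state alone Cxcr6 with S1pr1 was 0.568 and 0.594. They describe cells of 1 library each, with no test. Klf2, a transcription factor that drives S1pr1, was found with S1pr1 at 1.99 and 2.29 times the product, and Zeb2, a factor of terminal effectors, with Cx3cr1 at 2.17 and 1.80 times. At the same depth, 76.9% and 73.5% of type 17 gamma-delta T cells held UMIs of at least 2 of the 9 receptors, against 28.5% and 29.9% of all CD8 T cells and 17.6% and 15.99% of cycling CD8 cells. Activated CD4 cells (45.3% and 55.6%) and PD-1-negative effectors (38.9% and 46.6%) lay between.

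The genes most like each receptor across the 17 states were found by Pearson's r of log2(CPM + 5), averaged over the libraries, among 3718 genes that reached 50 CPM in a state. The points share libraries and gates, so r is a description without a test. Cxcr4 was closest to Zfp36l2 (r = 0.951), Rasa2 (0.949) and Irf2bp2 (0.949), where Zfp36l2 encodes an mRNA decay factor. Cx3cr1 was closest to Rpa2 (r = 0.928), Lag3 (0.927) and Itgb2 (0.924), of which Lag3 is an inhibitory receptor of exhausted cells and Itgb2 the integrin chain CD18. Ccr8 was closest to Isg20 (r = 0.948), Lrrc32 (0.943) and Rapsn (0.935), where Lrrc32 (GARP) displays latent TGF-beta on regulatory T cells. Cxcr3 was closest to Nt5e (r = 0.868), Ifnar1 (0.822) and Arl2bp (0.809), of which Nt5e is the ectonucleotidase CD73 and Ifnar1 an interferon receptor chain. Cxcr6 was closest to Uhrf2 (r = 0.884), Ostf1 (0.877) and Mir155hg (0.875), the last the host gene of miR-155. The others were Ccr2 with Plgrkt (r = 0.943), Serinc3 (0.928) and Aplp2 (0.925), Ccr7 with BE692007 (r = 0.944), Rab3ip (0.919) and Hdac7 (0.912), S1pr1 with Ccpg1 (r = 0.966), Ssh2 (0.964) and A930005H10Rik (0.963), and S1pr5, whose counts are few, with Sp110 (r = 0.750), Epsti1 (0.705) and Nck1 (0.691). Among the receptors themselves the strongest opposite pairs were Ccr7 with Cxcr4 (-0.75) and Cxcr4 with Cx3cr1 (-0.75), and the strongest like pair was Ccr2 with Cxcr4 (0.62).

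The wider pathway was described by lists of genes, over all CD8 T cells and beside the same 14.9% of genes past 1.5-fold, whose median log2 ratio was -0.028. Members named because a count was small were chosen after their values were seen. Of 20 other homing receptors, 15 had at least 50 counts, 2 were higher and 1 lower in the library labelled Dapl1-KO, with a median of -0.15. Among the higher was Ccr1, a receptor for CCL3 and CCL5 (2.91 and 7.17 CPM, 1.30). The lower one was Ccr9, the gut-homing receptor (1.94 and 0.392 CPM, -2.31). Of the ligands, 13 were measured in CD8 T cells, 6 higher and 1 lower, median 0.54. The largest ratios were those of Ccl22 (0.636 and 2.64 CPM, 2.06), Cxcl16 (4.11 and 9.79 CPM, 1.25) and Cxcl9 (2.25 and 5.20 CPM, 1.21), and Ccl3, a product of CD8 cells themselves, was at 182 and 374 CPM (1.04). Ccl2 was lower (25.6 and 12.4 CPM, -1.05). Myeloid cells held Cxcl16 at 123 and 249.8 CPM, Cxcl9 at 172 and 271 CPM and Ccl2 at 2160.4 and 931 CPM, far above the CD8 levels, and the part of their RNA in the CD8 values was not tested. Ccl1, the ligand of CCR8, stood at 787 and 51.7 CPM in ILC1-like cells and 64.7 and 230.1 CPM in activated CD4 cells, the highest level of the first and of the second library in turn.

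Genes of receptor signalling, such as G proteins, arrestins and RGS proteins, were mostly even between the labels, with 1 of 18 higher (Gng2, 0.91) and 0 lower, median 0.11. Across CD8 states they were not even. In PD-1 TIM-3 over naive cells, 11 and 12 of 18 were higher in the 2 libraries and 1 lower in each, beside the 50.5% and 49.2% of genes given above. The transcription factors of homing receptors had 0 of 15 higher and 5 lower in the library labelled Dapl1-KO, median -0.094. The lower ones, all factors of naive or memory cells, were Id3 (-1.37), Lef1 (-1.01), Klf2 (-0.83), Tcf7 (-0.77) and Bach2 (-0.63), and Tcf7 and Lef1 also served in the gates. Naive cells were 27.2% and 11.8% of CD8 T cells. Within single states Id3 was also lower by 1.5-fold in naive, PD-1-negative effector, progenitor-like and PD-1 TIM-3-negative cells and Lef1 in PD-1 TIM-3-negative, PD-1 TIM-3 and cycling cells. Bach2 was lower in PD-1 TIM-3 cells but higher in PD-1 TIM-3-negative cells. Klf2 was higher in PD-1 TIM-3 cells and lower by 1.5-fold in no single state, and Tcf7 passed the fold in none. The CD8 remainder was not looked up. In PD-1 TIM-3 over naive cells, 5 and 4 of these factors were higher and 6 lower in each library, with Zeb2 and Prdm1 among the higher and Klf2 and Klf3 among the lower in both libraries. Of 12 adhesion and residency genes, 4 were higher (Itga1, Itgb7, Itgb2 and Ly6c2), and the median was 0.29. Ly6c2, which also gated the effectors, was at 150.1 and 315 CPM (1.07). Of 4 genes of S1P metabolism, 0 were higher and 1 lower (Sphk1, the kinase that makes S1P, 0.562 and 0.250 CPM, -1.17), median -0.17.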

How the data were processed

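Single-cell 3′ RNA libraries, 1 per label, were deposited by the authors as raw count matrices of UMIs per gene and cell barcode (16673 and 19662 barcodes), made with Cell Ranger 5.0.0 on mm10 (GRCm38) per the submitters' processing notes. Groups come from the genotype labels alone. The members and all gene lists were chosen with earlier results of these data known.

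Of the 13132 barcodes found in both libraries, the copy with fewer UMIs was dropped where the other held at least 2 times as many, and 21 unclear barcodes were dropped from both (36.01% and 36.4% of barcodes went). A minimum of 500 genes and a limit of 10% mitochondrial UMIs were set (9865 and 11156 cells passed). Scrublet in scanpy 1.11.5 called 0 doublets at its automatic threshold, so the highest scores were removed at 0.8% per 1000 cells (867 and 1068 cells). The kept cells had medians of 7358 and 8463.5 UMIs. States were gated by marker UMIs without any member, leaving 23.7% and 18.4% ungated.

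UMIs were summed per state and library and divided by the state's total (CPM). Levels have exact Poisson intervals, ratios exact conditional binomial intervals and shares of cells exact Clopper-Pearson intervals, all at 95%. Shares were taken after thinning to 3000 UMIs, which leaves out shallower cells (107 and 148 CD8 T cells). A fold against 0 counts uses a floor of 3 counts. Called means at least 1.5-fold on at least 50 counts in the 2 groups together. There is 1 library per label, so no p-value was computed. Levels of 2 states are called separate where no library of one reaches into the range of the other. All 9 receptors are named, besides the 3 genes nearest each by r and up to 3 genes per list with the largest ratios, save list genes whose results are not reported here. Ccl19 and Ccl21a, whose symbols are duplicated, and Cxcl11 were left out. The ratio script was tested on simulated counts. Alternatives concerned the shared barcodes, doublets, the CD8 gate, sex-linked messages, scaling, weighting, the count minimum and thinning, and 1 more, leaving out cells with antigen-presenting-cell messages, was chosen after seeing the data.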

Additional observations from a re-analysis of the deposited data

Results flagged for a closer look

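For 3 receptors the difference between the labels had opposite signs in 2 cell states, with counting intervals on either side of 0, and the difference between the states was not tested, since each label has 1 library. Ccr2 had a log2 ratio, library labelled Dapl1-KO over library labelled WT, of 1.27 (0.66 to 1.92) in progenitor-like CD8 cells and -0.60 (-0.81 to -0.39) in regulatory T cells without Areg and Klrg1. Ccr7 stood at 1.15 (0.88 to 1.41) in double-negative innate-like T cells and -0.92 (-0.98 to -0.86) in cycling CD8 cells. Cx3cr1 stood at 2.10 (1.54 to 2.69) in regulatory T cells with Areg or Klrg1, where 1 cell held 94 of 167 counts, and -0.82 (-1.16 to -0.49) in Gzmk-negative PD-1 TIM-3 cells. The pair shown for each receptor is the one with the largest values of either sign, chosen after the values were seen. With every shared barcode dropped, Ccr2 in these regulatory T cells turned to 1.10 (0.30 to 2.003). Ccr7 then stood at 0.505 (0.087 to 0.94) in double-negative and -0.58 (-1.36 to 0.32) in cycling cells. Among Y-linked cells Cx3cr1 in Gzmk-negative PD-1 TIM-3 cells turned to 1.15 (0.28 to 2.14). Ccr2 in progenitor-like CD8 cells kept its sign in every alternative. In Y-linked cells this rests on 1 Ccr2 count under the WT label (19 cells), and with every shared barcode dropped 44 and 149 progenitor-like cells remained.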

How the results depend on the processing

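Ratios between the labels over all CD8 T cells kept their sign in 9 of 9 alternatives for Ccr2, Ccr7, Cxcr3 and Cxcr6. Ccr2 ranged from 0.64 to 1.02 and Cxcr6 from 0.45 to 1.08. Ratios of PD-1 TIM-3 over naive cells kept their sign in every alternative run for the 8 receptors measured. The following values moved beyond a set margin or changed sign, and the causes were not tested. For ratios between the labels the margin was the counting interval of the main value. For PD-1 TIM-3 over naive cells it was the standard deviation of the 2 library ratios. For counts of genes it was 1.5-fold, and for shares of cells the width of the interval under the Dapl1-KO label. With all deposited barcodes kept, all CD8 T cells had log2 ratios of Ccr2 0.64, Ccr7 -0.45 and Cxcr6 0.59 and 1179 genes passed 1.5-fold. With every barcode found in both libraries dropped, all CD8 T cells had log2 ratios of Ccr2 1.02, Ccr7 -0.19, Ccr8 0.14, Cxcr3 0.56, Cxcr4 0.089, Cxcr6 1.08 and Cx3cr1 0.95 and PD-1 TIM-3 over naive cells gave Ccr2 2.78, Ccr7 -1.78 and Cxcr3 -0.77. Of the 106 ratios between the labels in single states, 27 turned sign there, 7 of them past 1.5-fold in the main analysis, 6 could not be read for want of counts, and 23 of 39 calls were kept. The calls that turned or could not be read include Ccr2 in cycling CD8 cells (-0.45), Ccr2 in other regulatory T cells (1.10), Ccr7 in PD-1 TIM-3-negative cells (0.30), Ccr7 in Gzmk-negative PD-1 TIM-3 cells (0.68), Ccr7 in Ly49 NK cells (0.54), Ccr8 in Gzmk-positive PD-1 TIM-3 cells (1.15), Cxcr3 in Ly49 NK cells (-0.12), Cx3cr1 in Areg or Klrg1 regulatory T cells (-0.96) and S1pr1 in Gzmk-negative PD-1 TIM-3 cells (-0.56). Without doublet removal, all CD8 T cells had log2 ratios of Cx3cr1 -0.024 and PD-1 TIM-3 over naive cells gave Cxcr6 4.32 and Cx3cr1 4.61. With the CD8 gate at 2 UMIs, all CD8 T cells had log2 ratios of Ccr7 -0.66 and PD-1 TIM-3 over naive cells gave Cx3cr1 4.83. In cells with Y-linked but no Xist messages, all CD8 T cells had log2 ratios of Ccr7 -0.56, Ccr8 -1.08, Cxcr4 -0.44, Cxcr6 0.45, Cx3cr1 0.82, S1pr1 -1.33 and S1pr5 -0.18 and PD-1 TIM-3 over naive cells gave Cxcr3 -0.87, Cxcr6 4.89 and Cx3cr1 3.79. Of 103 single-state ratios 28 turned sign there, 8 of them called before, 5 could not be read, and 20 of 39 calls were kept. The calls that turned or could not be read include Ccr2 in other regulatory T cells (0.46), Ccr2 in remaining NK cells (-0.27), Cxcr3 in Ly49 NK cells (-1.06), Cxcr4 in remaining NK cells (-1.89), Cx3cr1 in Gzmk-negative PD-1 TIM-3 cells (1.15), Cx3cr1 in activated CD4 cells (-0.80), Cx3cr1 in double-negative innate-like T cells (-0.67), S1pr1 in PD-1 TIM-3-negative cells (-0.027), S1pr1 in ILC1-like cells (-1.86) and S1pr1 in remaining NK cells (-2.37). Without cells holding antigen-presenting-cell messages, all CD8 T cells had log2 ratios of Ccr7 -0.79. With a minimum of 10 counts, 3549 genes passed 1.5-fold. With a minimum of 1 count, 6798 genes passed 1.5-fold. With scaling by the median gene ratio, PD-1 TIM-3 over naive cells gave Cxcr4 -1.83, Cxcr6 4.30 and Cx3cr1 4.03. As means over cells, all CD8 T cells had log2 ratios of Ccr2 0.97, Cxcr3 0.60, Cxcr4 0.0034, Cxcr6 0.80, Cx3cr1 0.071 and S1pr1 -0.40 and PD-1 TIM-3 over naive cells gave Cxcr3 -1.08. With equal weight to each CD8 state, all CD8 T cells had log2 ratios of Ccr7 -0.30, Cxcr3 0.61, Cxcr4 -0.028, Cxcr6 0.52 and S1pr1 0.33. The main count was 1929 genes. Where the library labelled WT had no count left (S1pr5, Cx3cr1 in regulatory and activated CD4 cells, Ccr7 in Ly49 NK cells, Ccr2 in remaining NK cells), the floor of 3 counts stands in and the sign cannot be read. Of the other 934 values, 781 stayed within their margin and 153, all for single states or shares of cells, moved beyond it. A ratio short of 1.5-fold could turn sign within its margin. Of the 106 single-state ratios, 12 turned with all deposited barcodes kept, 5 without doublet removal and 1 with the CD8 gate at 2 UMIs. Without cells holding antigen-presenting-cell messages 5 turned, with scaling by the median gene ratio 4, and as means over cells 10. None of these was past 1.5-fold in the main analysis. No paired analysis was possible because each label has 1 library. Depth limited S1pr5 in all states and every ratio on fewer than 50 counts.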

Other observations

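The few PD-1 TIM-3 cells with at least 5 Ccr7 UMIs (75 and 58 after cells with antigen-presenting-cell messages were left out) were set beside those with none (487 and 663). Some genes of antigen-presenting cells, such as Cd74 and Cst3, stayed higher in the Ccr7-rich cells, and the part of such RNA in the values below was not tested. The split used Ccr7 itself and the genes were named after their values were seen, so these are descriptions. Ccl1, the ligand of CCR8, stood at 152 against 20.3 CPM under the WT label and 179 against 13.9 CPM under the Dapl1-KO label. Xcl1, a chemokine that attracts cross-presenting dendritic cells, stood at 197 against 44.2 CPM under the WT label and 275 against 118 CPM under the Dapl1-KO label. Ligand or cytokine receptor genes were higher as well, with Tnfsf4 (OX40 ligand) at 80.7 against 13.4 CPM under the WT label and 94.2 against 21.1 CPM under the Dapl1-KO label, and Il2ra, the high-affinity chain of the interleukin-2 receptor, at 66.3 against 21.1 CPM under the WT label and 122 against 35.4 CPM under the Dapl1-KO label. Gzmk was lower at 70.7 against 184 CPM under the WT label and 90.2 against 187 CPM under the Dapl1-KO label, and Cxcr6 stood at 177 against 298 CPM under the WT label and 289 against 417 CPM under the Dapl1-KO label. Tcf7, a factor of naive and memory cells, stood at 7.51 against 5.52 CPM under the WT label and 16.8 against 4.18 CPM under the Dapl1-KO label, on few counts. Ccr7-rich cells had median totals of 20477 and 19778 UMIs, against 11326 and 11349 in cells without Ccr7, and the part of this depth in the differences was not tested.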
